A study of Mus musculus with 4 samples.

Results

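The genes of the reelin pathway examined here were Reln, Lrp8, Vldlr, Lrp1, Lrp2 and Dab1, 6 of the 21883 protein-coding genes of a RefSeq table of the mouse build GRCm38.p6 (mm10). They were chosen by name, with earlier results of these data known. A peak was counted for a gene when it overlapped the gene body or the 3 kb on either side. The data were peak lists from chromatin immunoprecipitation with sequencing (ChIP-seq) of hippocampus from adult C57BL/6N mice, with 3 libraries made with an antibody against TIMELESS and 1 input library of the same tissue and strain that was not immunoprecipitated. No treatment or engineered allele is given for any library, and the labels name no animal for a TIMELESS library, so differences among these libraries could be technical. The tissue was whole hippocampus. The peak lists hold no expression values, so the tissue could not be checked against marker genes, nor could a site be assigned to a cell type.

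Reelin, the product of Reln, is a large glycoprotein that is secreted by Cajal-Retzius cells in the developing cortex and hippocampus and mainly by interneurons in the adult. It binds the receptors encoded by Lrp8 (ApoER2) and Vldlr, both of the low-density lipoprotein (LDL) receptor family, and the adaptor encoded by Dab1 is then phosphorylated by kinases of the Src family. The pathway is known for setting the position of neurons during development and for modulating synaptic plasticity in the adult hippocampus. Lrp1 and Lrp2 encode large endocytic receptors of the same family. TIMELESS is known from the replication fork and, with debate in mammals, from the circadian clock.

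The peak caller kept between 8425679 and 30454118 tags in the TIMELESS libraries and 14669253 in the input, and its lists held 7454, 24659 and 89043 TIMELESS peaks (replicates 1, 2 and 3) beside 306 input peaks. A library whose label is TIMELESS replicate 3, called replicate 3 from here on, has a file header that names an input. Peaks of the 6 genes are therefore given by library, and counts of shared sites also from replicates 1 and 2 alone. A list shows only what passed the caller's threshold, and the lowest pileup (fragment coverage at the summit) listed was 7, 8 and 12 in the 3 TIMELESS lists in that order and 11 in the input list. To set libraries of different depth side by side, height here means the pileup divided by the genome-wide background of the library, which was 1.29, 1.92 and 4.23 in the TIMELESS libraries in that order and 1.71 in the input. Fold enrichment is the authors' deposited value for each peak, relative to the local or genome-wide background of the same library.

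Of the 6 genes, 3 held a site where peaks of at least 2 TIMELESS libraries overlapped, namely Reln, Dab1 and Lrp2. Over all protein-coding genes the share was 9.92%, but it depends on length. Among the 215 genes within 20% of the length of Reln it was 79.5%, among the 57 within 20% of Dab1 it was 94.7%, and among the 729 within 20% of Lrp2 it was 32.9%. Holding a shared site is therefore common for genes as long as Reln and Dab1. With replicates 1 and 2 alone the same 3 genes held a site of both, and the share was 5.54% of all protein-coding genes and 47.9%, 87.7% and 18.0% of those of like length to Reln, Dab1 and Lrp2. Reln was the only one of the 6 with a site of all 3 TIMELESS libraries, which 4.18% of all protein-coding genes and 35.8% of those of like length also held. The other genes, Lrp8, Vldlr and Lrp1, held no peak of any library. The input had no peak in any of the 6 genes, and it had one in 0.434% of protein-coding genes.

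**Figure D1:**
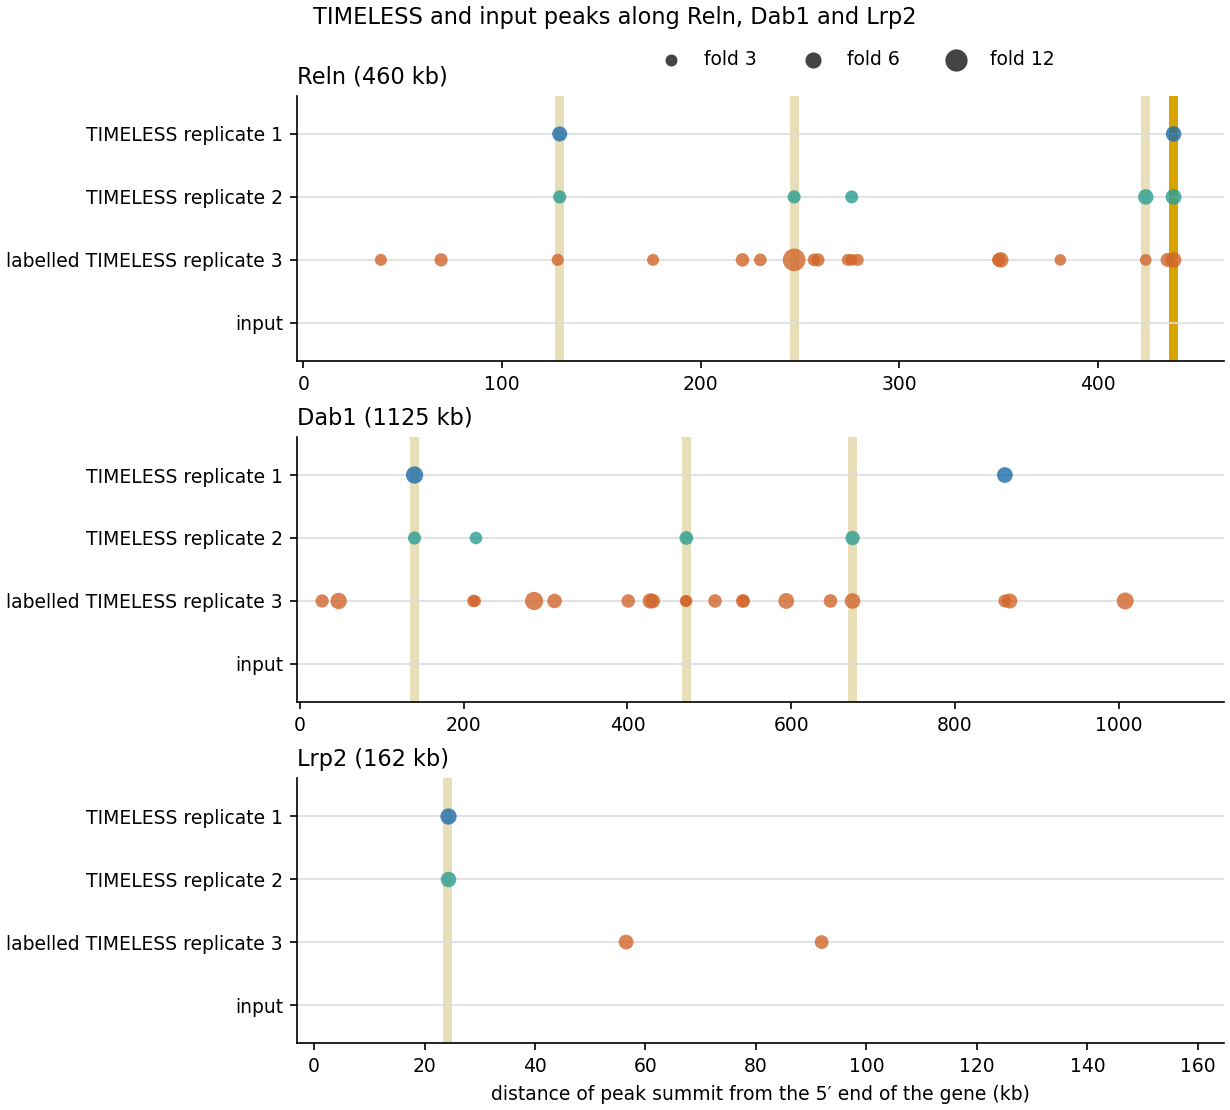
Summits of all listed peaks along Reln, Dab1 and Lrp2, by distance from the 5′ end of each gene (kb) and by library, with dot area growing with the deposited fold enrichment. Pale bands mark sites met by 2 TIMELESS libraries and the dark band the Reln site met by all 3, and the input row holds no peak.

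No TIMELESS peak lay within 3 kb of an annotated start of any of the 6 genes, against 8.13% of the 17491 protein-coding genes with a listed start that had a peak so near, or 2.80% with replicates 1 and 2 alone. RefSeq lists 10 start sites for these genes. The nearest listed peak to the Reln start was 19.2 kb away and outside the gene, and to the nearest Dab1 start 10.1 kb away and also outside. Both were of replicate 3. To the Lrp2 start it was 24.0 kb away, inside the gene and of replicate 2. Inside Reln the summits of replicates 1 and 2 nearest the start both lay 129 kb from it. Inside Dab1 they lay 113 and 72.7 kb from a listed start. Since the data bear on the promoters by these distances, the 250 bases upstream of the start are shown for the 3 genes that held peaks. They were read 5′ to 3′ on the strand of the gene from RefSeq sequence of GRCm38.p6, at chr5:22344706-22344955 (minus strand) for Reln, chr4:103619250-103619499 (plus strand) for the first Dab1 start and chr2:69586030-69586279 (minus strand) for Lrp2. Capitals mark the canonical E-box CACGTG, the palindromic element bound by CLOCK and BMAL1, which reads the same on both strands.
Reln: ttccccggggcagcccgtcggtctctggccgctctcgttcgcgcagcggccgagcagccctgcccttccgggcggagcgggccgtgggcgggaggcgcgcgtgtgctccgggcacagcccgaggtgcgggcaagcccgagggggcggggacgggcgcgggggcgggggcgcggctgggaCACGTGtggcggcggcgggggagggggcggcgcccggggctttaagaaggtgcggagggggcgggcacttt
Dab1: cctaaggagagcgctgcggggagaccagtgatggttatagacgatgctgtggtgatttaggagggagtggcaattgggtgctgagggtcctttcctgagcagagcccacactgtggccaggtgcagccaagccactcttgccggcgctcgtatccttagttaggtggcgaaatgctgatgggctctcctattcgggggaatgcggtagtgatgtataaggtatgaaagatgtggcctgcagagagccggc
Lrp2: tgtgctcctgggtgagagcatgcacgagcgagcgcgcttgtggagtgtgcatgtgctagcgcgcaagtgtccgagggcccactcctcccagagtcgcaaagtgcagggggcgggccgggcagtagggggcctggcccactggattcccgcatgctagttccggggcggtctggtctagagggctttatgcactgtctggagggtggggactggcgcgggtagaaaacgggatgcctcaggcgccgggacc
Among the 10 upstream windows of the 6 genes, the Reln window alone held CACGTG, with its last base 66 bases before the start. Of all 32851 upstream windows of this length in the table, 6.02% held it. The Reln window was 80.0% G and C, the windows of the first and second Dab1 starts 56.4% and 78.0% and the Lrp2 window 66.4%, against a median of 52.4% over all windows. A match to these letters is a description of the sequence and not a site of binding.

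Reln, the ligand of the pathway, spans 460.3 kb on the minus strand of chromosome 5 (21884454 to 22344705). It held 2 peaks in replicate 1, 5 in replicate 2 and 18 in replicate 3, and none in the input. These came to 0.429, 1.07 and 3.86 peaks per 100 kb of the gene and its flanks. Among the 215 genes of like length the medians were 0.209, 0.757 and 2.66, and 82.8%, 74.9% and 71.6% of those genes lay lower. Reln was thus above the median of genes of its length in each of the 3 TIMELESS libraries, and within the upper quartile bound in replicates 2 and 3.

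**Figure D2:**
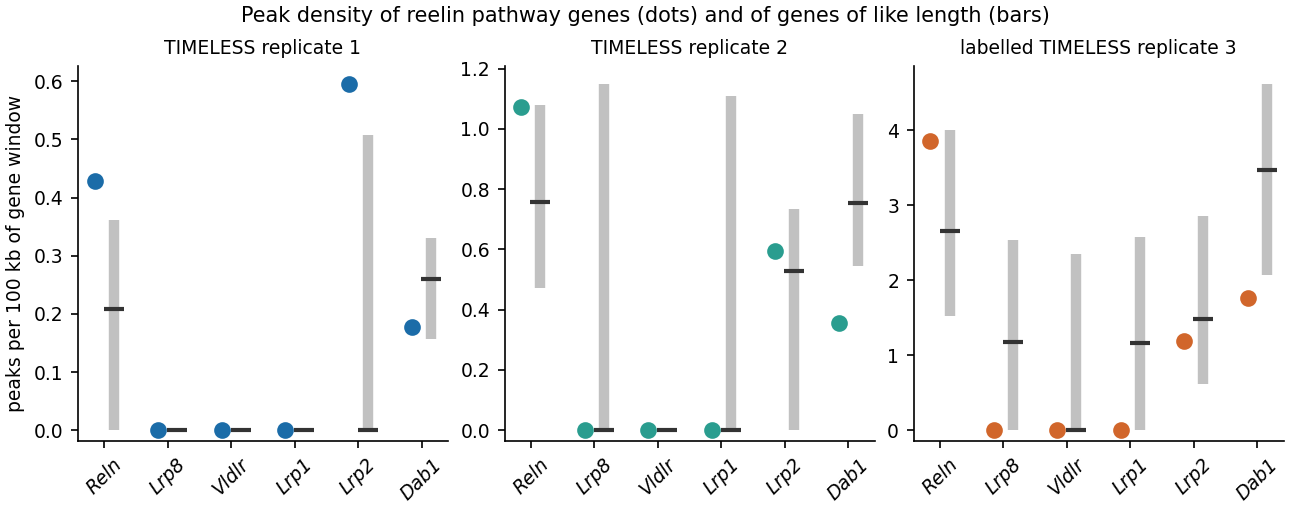
Peaks per 100 kb of gene window in each TIMELESS library for the 6 genes (dots), beside the median (black dash) and the quartiles (grey bar) of protein-coding genes within 20% of the same length, with a separate axis for each library. Reln lies above the median and Dab1 below it in all 3 libraries, and Lrp8, Vldlr and Lrp1 are at 0.

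The 25 Reln peaks formed 20 sites, of which 1 was met by all 3 TIMELESS libraries, 3 by 2 libraries and 16 by 1. The site of all 3 libraries lay at 21906477 to 21907194, near the 3′ end of the gene, 438 kb from its 5′ end or 95.1% of its length. Its pileup was 13 in replicate 1, 20 in replicate 2 and 28 in replicate 3. The deposited folds were 5.50, 5.75 and 5.54, a mean of 5.60 ± 0.134 (SD, n = 3, replicate 3 included). The deposited fold adds 1 to the pileup and to the background, and the backgrounds there were 1.54, 2.65 and 4.24. Near-equal folds therefore do not show equal enrichment in libraries of different depth. The heights were 10.1, 10.4 and 6.61, lowest in replicate 3. The peaks had 366 bp in common and their summits lay within 104 bp, against a median of 124 bp over the 3476 sites of all 3 libraries. Of those 3476 sites, 80.6% had a lower smallest fold.

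A second site, at 21920967 to 21921311, lay 424 kb from the 5′ end and was met by replicates 2 and 3. Replicate 2 had a pileup of 15 and a fold of 5.47 there, and replicate 3 had 14 and 2.87. The summits were 21 bp apart, although the height was 7.80 in replicate 2 and only 3.31 in replicate 3. A height of 3.31 is under the 5.43 that was the lowest replicate 1 listed at its genome-wide background, so replicate 1 listed no peak as low as that at its genome-wide background.

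The Reln peak with the highest fold lay near the middle of the gene, at 22097590 to 22098226 in replicate 3, 247 kb from the 5′ end. Its pileup was 64 and its fold 12.42, rank 138 among the 89043 peaks of that library. Replicate 2 had a peak at the same place, with a pileup of 10 and a fold of 3.76, rank 18947 of 24659. Replicate 1 listed no peak there. The heights were 15.1 and 5.20, so this site was 2.90 times as high in replicate 3 as in replicate 2. A height of 15.1 is well over the lowest that replicates 1 and 2 and the input listed at their genome-wide backgrounds, which were 5.43, 4.16 and 6.43.

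The fourth Reln site, at 22215347 to 22215845, lay 129 kb from the 5′ end and was met by replicates 1 and 2. Replicate 1 had a pileup of 18 and a fold of 5.15, and replicate 2 had 15 and 3.8, a mean fold of 4.47 ± 0.955 (SD, n = 2). Replicate 3 listed a peak with a pileup of 39 and a fold of 3.11 at 22216266 to 22216582, which began 421 bp from the peak of replicate 2 and did not overlap it. Where peaks were joined over gaps of up to 1 kb, a choice made after the values were seen, this became a site of all 3 libraries, and Reln had 5 shared sites, 2 of them of all 3 libraries.

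**Figure D3:**
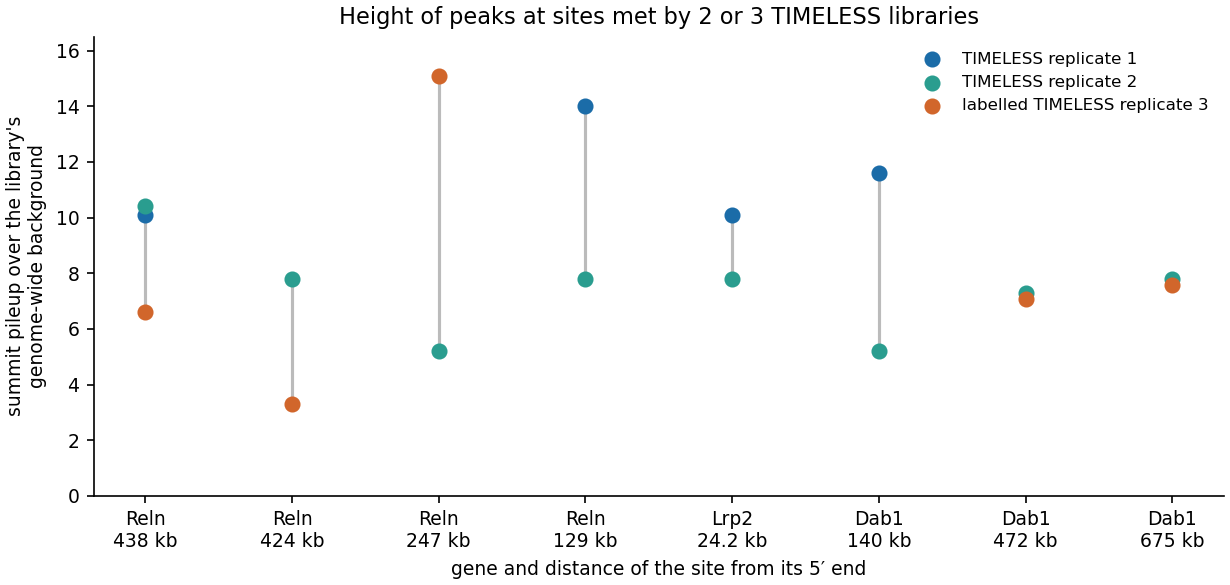
Height of the peaks, as summit pileup over the genome-wide background of each library, at the 8 sites in Reln, Lrp2 and Dab1 met by 2 or 3 TIMELESS libraries, named by gene and distance from its 5′ end. Grey lines join the libraries of a site, and the Reln site at 247 kb has the widest gap, from 5.20 in replicate 2 to 15.1 in replicate 3.

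The remaining Reln peaks belonged to replicate 3, apart from 1 of replicate 2. The folds of the 18 peaks of replicate 3 ran from 2.79 to 12.42 with a median of 3.44, below the median of 3.63 over all peaks of that library. Of the 18, 13 lay nearer the 3′ end of the gene than the 5′ end, and the peak nearest the start lay 39.0 kb inside it. The 2 peaks of replicate 1 had folds of 5.15 and 5.50, and the 5 of replicate 2 had folds from 3.64 to 5.75.

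Several Reln peaks lay where coverage was raised over a wider stretch. The background that the caller used at a peak can be recovered from its pileup and fold. It was 1.63 and 1.76 times the genome-wide background at the peaks of replicate 3 at 259 and 257 kb from the 5′ end, and between 1.93 and 2.24 times at those at 274 to 279 kb. The single peak of replicate 2 in that stretch, at 276 kb, had a ratio of 1.76. Around 129 kb the ratios were 2.09, 1.67 and 2.81 in replicates 1, 2 and 3. Raised background thus occurred at the same places in more than 1 library, and in all 3 at the site around 129 kb. In Reln 2 of 2 peaks of replicate 1, 3 of 5 of replicate 2 and 6 of 18 of replicate 3 had a ratio over 1.1, beside 66.2%, 57.9% and 54.9% of all peaks of those libraries. The coverage of the input at these places is not in its peak list, and what raised the background was not tested.

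**Figure D4:**
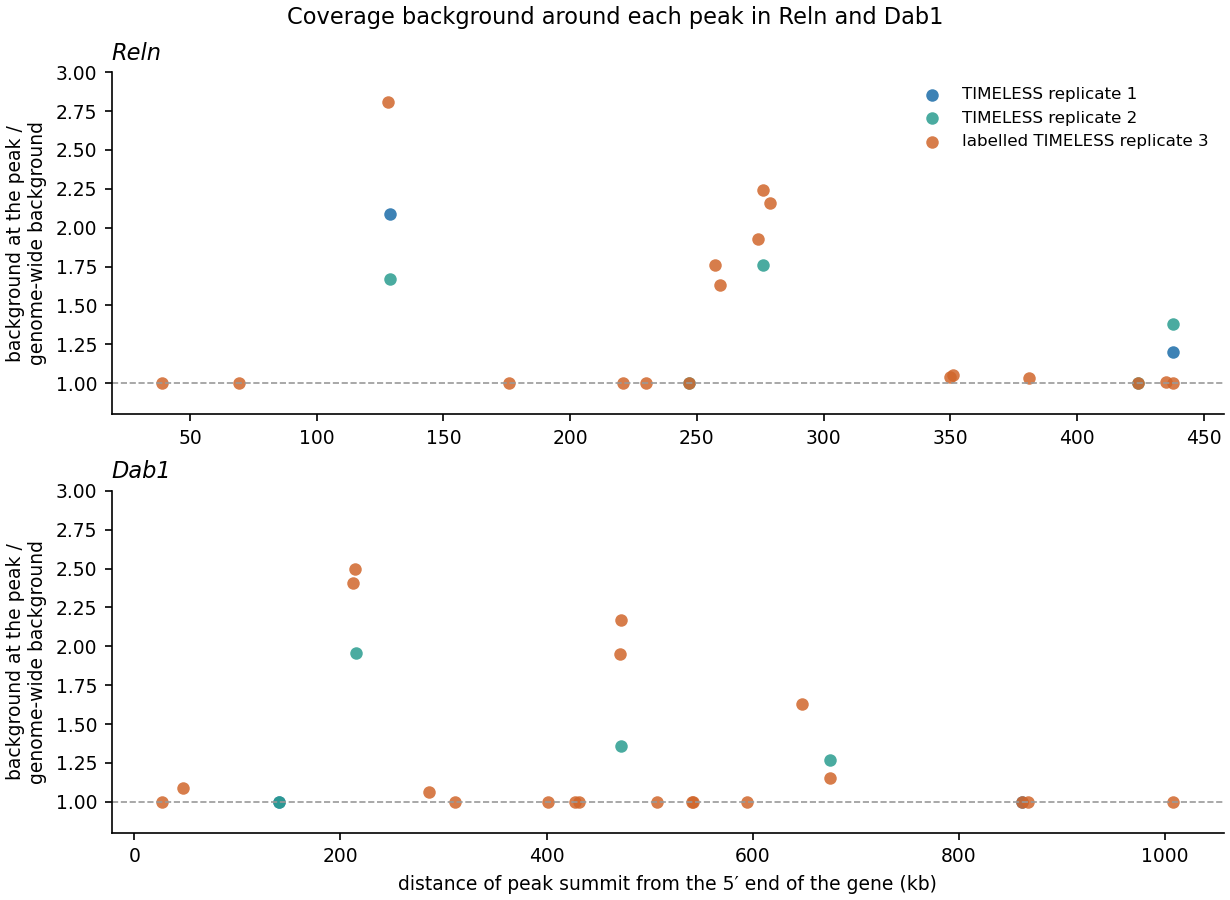
Background at each peak in Reln and Dab1 as a multiple of the genome-wide background of its library (dashed line at 1), against distance from the 5′ end of the gene (kb). Peaks around 129 and 257 to 279 kb in Reln and around 212 and 472 kb in Dab1 have raised values in more than 1 library or in neighbouring peaks.

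Dab1, the intracellular adaptor that passes on the signal from the reelin receptors, spans 1125 kb on the plus strand of chromosome 4 (103619500 to 104744844), the longest of the 6. It held 2, 4 and 20 peaks in replicates 1, 2 and 3 and none in the input. Per 100 kb these were 0.177, 0.354 and 1.77 peaks, against medians of 0.260, 0.754 and 3.47 among the 57 genes of like length. Only 33.3%, 10.5% and 19.3% of those genes lay lower, so Dab1 was poorer in peaks than most genes of its length in each library. Reln had 2.43, 3.03 and 2.18 times its density in replicates 1, 2 and 3. In replicate 1 both genes held 2 peaks, so that ratio was only the ratio of their window lengths. In replicate 3 Dab1 held more peaks than Reln, 20 against 18.

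The 26 Dab1 peaks formed 23 sites, 3 met by 2 libraries and none by all 3, whereas 70.2% of genes of like length held a site of all 3. At 103759330 to 103759917, 140 kb from the 5′ end, replicate 1 had a pileup of 15 and a fold of 6.99 and replicate 2 had 10 and 3.76. The fold in replicate 1 was 1.86 times that in replicate 2, and replicate 3 listed nothing there although it was the deepest library. At 104091476 to 104091769, 472 kb from the 5′ end, replicate 2 had a pileup of 14 and a fold of 4.14 and replicate 3 had 30 and 3.04. Their heights of 7.28 and 7.09 were nearly equal, with background ratios of 1.36 and 2.17.

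The third Dab1 site, at 104294303 to 104295646, was 1344 bp wide and lay 675 kb from the 5′ end. Replicate 2 had a pileup of 15 and a fold of 4.65 and replicate 3 had 32 and 5.60, with heights of 7.80 and 7.56. Of the 8481 sites of 2 libraries over the genome, 83.9% had a lower smallest fold. The summits were 305 bp apart, against a median of 90.0 bp at sites of 2 libraries. A further pair of peaks came close without overlap. The second peak of replicate 1, with a fold of 5.68, lay at 104480686 to 104481007, and a peak of replicate 3 with a fold of 3.63 ended 254 bp before it.

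The peaks of replicate 3 in Dab1 had folds from 2.71 to 7.86 with a median of 4.13, above the 3.63 over all its peaks. The highest, at 103904828 to 103905947, had a pileup of 42 and rank 1570 among 89043, and no other library had a peak within 69.8 kb of it. Of the 20 peaks, 14 lay nearer the 5′ end of the gene than the 3′ end, the opposite of Reln. The second annotated Dab1 start lies inside the gene at 104367538, and the nearest peak to it, of replicate 3, was 71.9 kb away.

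Many peaks of replicate 3 reached the lowest height that a shallower library listed at its genome-wide background but met no peak there. A height near that lowest value does not ensure a listing in a shallow library, and the effect of sampling was not tested. Of its 14 Dab1 peaks with a background ratio of at most 1.1, 13 had a height of at least 4.16, the lowest that replicate 2 listed at its genome-wide background, and replicate 2 met 0 of them. Of its 12 such Reln peaks, 7 reached that height and replicate 2 met 2. Over the genome replicate 2 met 2172 of 31630 such peaks, or 6.87%, so the rate was low over the genome as well. Replicate 1, whose lowest height was 5.43, met 1 of 3 Reln peaks and 0 of 8 Dab1 peaks of at least that height. Over the genome it met 5.40% of such peaks.

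Lrp2, which encodes the endocytic receptor megalin, spans 161.7 kb on the minus strand of chromosome 2 (69424335 to 69586029). It held 1 peak in replicate 1, 1 in replicate 2 and 2 in replicate 3. The peaks of replicates 1 and 2 met at 69561664 to 69562059, 24.2 kb from the 5′ end, with pileups of 13 and 15 and folds of 6.12 and 5.47, a mean of 5.79 ± 0.460 (SD, n = 2). Their summits were 12 bp apart, and 95.1% of the 8481 sites of 2 libraries had a lower smallest fold. By that measure it was the strongest shared site of 2 libraries in the 6 genes. Replicate 3 listed no peak there, and its own peaks, with folds of 4.20 and 4.97, lay 91.9 and 56.5 kb from the 5′ end. The density of 0.596, 0.596 and 1.19 peaks per 100 kb stood beside medians of 0, 0.529 and 1.48 among genes of like length.

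The receptor genes Lrp8, Vldlr and Lrp1 held no peak in any of the 4 libraries. Lrp8 spans 74.6 kb of chromosome 4 (107802200 to 107876840), Vldlr 37.8 kb of chromosome 19 (27216480 to 27254231) and Lrp1 83.0 kb of chromosome 10 (127538157 to 127621148). Over all protein-coding genes, 65.2% likewise held no peak of a TIMELESS library. Among genes of like length the share was 33.8% for Lrp8, 56.6% for Vldlr and 29.9% for Lrp1, so an empty list is common for genes of these lengths. With replicates 1 and 2 alone these shares were 81.6% of all protein-coding genes and 67.6%, 80.2% and 63.4% of those of like length. In a peak list this means that no site passed the caller's threshold, not that there was no binding.

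Of the peaks that replicates 1, 2 and 3 had in the 6 genes, 4 of 5, 8 of 10 and 5 of 40 lay in shared sites. These shares of 80.0%, 80.0% and 12.5% stood beside 76.0%, 46.3% and 12.2% over the genome. The latter are of the 7311, 24494 and 88867 peaks of those libraries that remained once sites over an input peak were left out. In replicates 1 and 3 the genes were close to the genome-wide share, and in replicate 2 they were above it with 10 peaks only.

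By peaks per 100 kb in the 4 libraries, the protein-coding genes most like Reln, among the 215 of like length, were Unc13c, a synaptic vesicle priming factor, with 2, 5, 21 and 0 peaks in replicates 1, 2, 3 and the input, Abca13, a lipid transporter, with 3, 5, 20 and 0, and Bbs9, a subunit of the BBSome of cilia, with 2, 6, 16 and 0. The summed differences from Reln were 0.259, 0.391 and 0.449 peaks per 100 kb. Those most like Dab1, among 57, were the teneurin gene Tenm3 with 2, 4, 26 and 0 peaks, the netrin receptor gene Dcc with 1, 6, 19 and 0, and the acid-sensing channel gene Asic2 with 1, 6, 18 and 0. Their summed differences were 0.297, 0.322 and 0.403. For both genes the differences were not scaled by library, so replicate 3, which had the highest densities, could weigh most in them.

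Of 4 lists of related genes, 3 held shared sites in a larger share of their members than all protein-coding genes did, and 1 in a smaller share. This share depends on length, and the lists, in the order below, had median lengths of 23.7, 49.2, 71.8 and 87.6 kb. Among protein-coding genes of 57.1 to 108 kb, 18.4% held a shared site. That range does not hold the medians of 23.7 and 49.2 kb, and no share was computed for genes matched in length to each list. Whether a larger share is a trait of a list apart from length was therefore not tested. Among 16 genes of reelin ligands, receptor partners and proteases, 4 held one, or 25%, with a median of 0 sites, beside 9.92% of all protein-coding genes. With replicates 1 and 2 alone only Mylip did, or 6.25%, beside 5.54%. Mylip, a ubiquitin ligase that marks LDL family receptors for degradation, held a site of all 3 libraries on chromosome 13 at 45401222 to 45401834, where replicate 1 had a fold of 8.85, replicate 2 of 11.29 and replicate 3 of 7.64. Their mean was 9.26 ± 1.86 (SD, n = 3). These were the only peaks of the 22.2 kb gene and exceeded the folds at the Reln site of all 3 libraries in each library. The integrin gene Itga3 had folds of 6.84 and 4.59 at a site of replicates 2 and 3. The amyloid precursor gene App had 5.45 and 4.01 and Adamts3, a protease that cleaves reelin, had 7.69 and 3.06, also in replicates 2 and 3.

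Among 32 genes of intracellular reelin signalling, 2 held a shared site, or 6.25%, and none a site of all 3 libraries. Src, a kinase that can phosphorylate Dab1, had folds of 4.14 and 4.65 in replicates 1 and 2. Dab2ip, a Ras GTPase-activating protein, had 4.81 and 2.87 in replicates 1 and 3. The other 30, among them Fyn, Crk, Crkl, Gsk3b, Pafah1b1 and Cdk5, held none. With replicates 1 and 2 alone only Src held one, or 3.12%.

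Synaptic targets of reelin signalling held a shared site in 2 of 9 cases, or 22.2%. The NMDA receptor subunit gene Grin2a had a site of all 3 libraries, where replicate 1 had a fold of 7.0, replicate 2 of 6.16 and replicate 3 of 3.82. Their mean was 5.66 ± 1.65 (SD, n = 3). The AMPA receptor subunit gene Gria1 had 5.24 and 5.16 in replicates 2 and 3. Of 14 other genes of the LDL receptor family and their adaptors, 5 held one, or 35.7%. Lrp1b, which at 2058.3 kb is longer than any of the 6 genes, had 8 shared sites, 3 of them of all 3 libraries, and folds of 9.69, 5.47 and 6.11 at the first by smallest fold.

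Dab2, an endocytic adaptor related to Dab1, had folds of 6.55, 4.45 and 5.73 at a site of all 3 libraries. Ldlrad4 had 4.52, 4.72 and 2.51, also in all 3. Ldlrad3 had 5.47 and 7.26 in replicates 2 and 3, and the Wnt coreceptor gene Lrp5 had 4.37 and 5.47 in replicates 1 and 2. Over the 4 lists together, 13 of 71 genes held a shared site, or 18.3%. Of the 20 listed genes that are among the 2189 longest protein-coding genes 9 did, beside 47.2% of those 2189. With replicates 1 and 2 alone the counts were 4 of 20 and 29.4%. None of the 71 genes held an input peak. Without replicate 3 the count over the 4 lists fell to 7, or 9.86%, of which 1 was a synaptic target, Grin2a, and 4 were of the LDL receptor list. Without replicate 2 it fell to 6.

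The counts in the 6 genes rested on single libraries. Without replicate 3 there were 4 shared sites, 2 in Reln and 1 each in Lrp2 and Dab1. Without replicate 2 there was 1, the Reln site near the 3′ end, and without replicate 1 there were 5, 3 in Reln and 2 in Dab1. Only the Reln site near the 3′ end and the Lrp2 site kept peaks of at least 2 libraries at a −log10 q of at least 5 and at a fold of at least 5. No test between TIMELESS and input libraries was made, since an exact permutation test of 3 against 1 cannot give a p below 0.25.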

How the data were processed

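The authors deposited 1 peak list per library. Per the file headers, MACS 2.1.2 called peaks without a control at a q cutoff of 0.05, keeping 1 tag per position. The submitters' processing notes name mm10, Bowtie2 2.4, SAMtools 1.14, MACS2 2.1.1 and deepTools 2.0. The aligner's options are not given in the sources used here. The deposited pileup is a signal not scaled for depth. The deposited fold is the ratio of pileup to background, each plus 1, so the background could be recovered. The deposited p and q values are −log10 values, per the file headers. With no control, any site where reads pile up can be called.

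Autosomes 1 to 19 and the sex chromosomes were kept. Overlapping TIMELESS peaks (1 bp) were joined into sites, and sites over an input peak were left out. Positions, starts and upstream sequences came from RefSeq tables of GRCm38.p6 (mm10). Exons were not analysed here. Site building was tested on simulated data. The 6 genes were always named. From each of the 4 gene lists, all of whose 71 genes matched, up to 5 genes with a shared site were named, ranked by libraries and smallest fold. The genes most like Reln and Dab1 were the 3 nearest in peaks per 100 kb. Genes and lists were chosen with earlier results of these data known. Python 3.11.15 and pandas 2.3.3 were used.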

Additional observations from a re-analysis of the deposited data

How the results depend on the processing

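The 8 shared sites in the 6 genes fell to 2 at −log10 q of at least 5, to 2 at fold of at least 5 and to 2 with 7454 peaks from each TIMELESS library. They ranged from 1 to 5 when a TIMELESS library was left out. The genes with a shared site, 3 of 6, ranged from 1 without replicate 2 to 3 without replicate 3. Listed pathway genes with a shared site fell from 13 to 8, 6 and 6 at the 3 stricter settings in that order, and ranged from 6 to 10 with a library left out. Protein-coding genes with one fell from 2171 to 1219, 817 and 971, and ranged from 1048 to 1856. The mean of 18.3 peaks in the 6 genes per TIMELESS library fell to 6 at the fold setting and to 4 at equal numbers, and ranged from 7.5 to 25 with a library left out. Other gene windows, an overlap of at least 50% of the shorter peak and keeping sites over input peaks kept each of these counts within 1.5 times its value. After the data were seen, 2 more settings were added: joining over gaps of up to 1 kb gave 10 shared sites, and leaving out peaks with a background over 1.5 times the genome-wide one gave 6. An alternative could move 153 values above 0, for single genes, gene lists and counts of genes with a site of all 3 libraries. Of these, 48 moved beyond 1.5 times, 47 of them down. No paired analysis was possible because the label of the single input library pairs it with no TIMELESS library. Depth differs between libraries, and a shallow library cannot list weak sites.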

Other observations

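Distances to the nearest peaks were also taken for the receptor genes that held no peak. They were not taken over all genes, so whether they are unusual was not tested. For Lrp8 the nearest peaks of replicates 1, 2 and 3 were 501, 107 and 166 kb from the gene, and the nearest shared site was 269 kb away. For Vldlr the distances were 684, 65.6 and 34.9 kb, with the nearest shared site at 409 kb. For Lrp1 they were 413, 160 and 156 kb, all on the 5′ side, and the nearest shared site lay at 160 kb. Lrp8 and Dab1 lie on the same chromosome, 3.06 Mb apart.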
